A study of Homo sapiens with 4 samples.

Results

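The enzymes and cofactors that write, read and erase histone acetylation were taken from an m6A peak table of breast cancer cells by gene symbol. They were the HDAC and SIRT deacetylases, the numbered KAT acetyltransferases, EP300, CREBBP, the NCOA coactivators, the NCOR1 and SIN3 corepressors, the bromodomain proteins BRD1, BRD2 and BRD3, and the BRPF, ING and TRRAP subunits. Of 49 annotated genes considered, 32 had at least 1 listed peak. Those 32 genes held 152 of the 27678 peaks in the table, which covered 7267 gene symbols.

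The cells, MDA-MB-231Br, were selected for growth in the brain from the mesenchymal, triple-negative breast cancer line MDA-MB-231 and were cultured with no treatment given in the labels. Poly(A) RNA was sonicated and precipitated with an antibody to N6-methyladenosine (m6A), a methyl mark on adenosines in mRNA, and 2 libraries of the immunoprecipitate (IP) and 2 of input RNA were sequenced. The cell line label gave the parental name MDA-MB-231, and the extraction protocol spoke of embryos, so the labels conflicted on the source. The table held 1 IP and 1 input read count per peak and none by replicate, so no test between replicates could be made.

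Acetyltransferases place acetyl groups on histone lysines, which loosens the hold of nucleosomes on DNA and marks active promoters and enhancers. Bromodomain proteins bind the acetylated lysines, and deacetylases, assembled on corepressor scaffolds such as SIN3A and NCOR1, remove them. In mRNA, m6A is placed mainly in the sequence context DRACH, where D excludes C, R is a purine and H excludes G, of which GGAC is a preferred core, and is known to collect in long internal exons and around stop codons.

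Of the 49 genes, 65.3% had a listed peak (exact 95% binomial interval 50.4 to 78.3), and of all protein-coding genes 36.1% did. The mesenchymal markers VIM, CD44, AXL, EGFR, MSN and CAV1 all had peaks. Of 6 luminal markers, GATA3 and EPCAM each had a peak, with 8 and 7 IP reads and 0 input reads, and ESR1, PGR, KRT19 and CDH1 had none. A gene without a peak may have been weakly expressed or below the authors' thresholds, so its absence was not read as a lack of methylation.

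The ratio of IP to input reads in a peak was used as the measure throughout. The library totals were not used, so a ratio of 1 was not the point of no enrichment, and ratios ranked peaks within the table. A peak was called IP-rich at 4 or more IP reads per input read and input-rich at 4 or more input reads per IP read. Peaks with 0 input reads counted as IP-rich, and for these the fold against a floor of 3 input reads is given. That fold is not a confidence limit.

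Sequences of member peaks on either side of these thresholds are shown with GGAC in capitals, 5′ to 3′ on the transcribed strand, from GENCODE 29 transcripts on GRCh38. The coding peaks of SIN3B (chr19:16869744-16870043, plus strand) and KAT5 (chr11:65712961-65713489, plus strand, spliced) were IP-rich and held 3 and 2 GGAC sites.
SIN3B, ratio 8.44: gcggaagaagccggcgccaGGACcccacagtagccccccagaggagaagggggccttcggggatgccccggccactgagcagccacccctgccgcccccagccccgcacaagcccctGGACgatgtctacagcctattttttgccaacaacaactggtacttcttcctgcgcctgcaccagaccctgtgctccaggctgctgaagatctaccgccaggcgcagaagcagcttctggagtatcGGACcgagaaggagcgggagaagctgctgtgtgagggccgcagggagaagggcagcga
KAT5, ratio 4.72: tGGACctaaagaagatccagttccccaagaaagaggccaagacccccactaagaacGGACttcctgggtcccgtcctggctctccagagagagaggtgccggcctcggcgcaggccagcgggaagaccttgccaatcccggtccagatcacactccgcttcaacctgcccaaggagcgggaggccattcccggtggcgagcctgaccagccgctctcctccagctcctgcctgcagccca

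Shown for contrast are 2 input-rich peaks that also held GGAC, from KAT5 (chr11:65714741-65716763, plus strand, spliced) and BRD2 (chr6:32976850-32977514, plus strand, spliced), and an IP-rich peak of EP300 with no GGAC (chr22:41177393-41177622, plus strand).
KAT5, ratio 0.0426: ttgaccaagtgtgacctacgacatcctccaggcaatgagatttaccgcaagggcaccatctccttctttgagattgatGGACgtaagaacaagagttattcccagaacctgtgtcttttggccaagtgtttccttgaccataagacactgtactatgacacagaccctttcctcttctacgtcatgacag
BRD2, ratio 0.0211: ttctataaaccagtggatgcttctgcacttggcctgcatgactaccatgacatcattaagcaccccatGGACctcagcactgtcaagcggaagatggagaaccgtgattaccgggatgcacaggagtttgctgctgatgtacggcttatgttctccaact
EP300, ratio 4.78: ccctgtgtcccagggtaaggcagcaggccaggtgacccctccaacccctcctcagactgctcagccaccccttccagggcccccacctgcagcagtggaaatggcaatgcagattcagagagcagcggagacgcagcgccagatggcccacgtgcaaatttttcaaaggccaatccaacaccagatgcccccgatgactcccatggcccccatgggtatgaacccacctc

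Windows of 30 nt around the GGAC nearest the 5′ end are shown for IP-rich peaks of ING1 (second exon), SIRT1 (first exon), EP300 (last exon) and ING5 (3′ UTR).
ING1, ratio 22.3: gcacgcggcaggtGGACagccacgtggagc
SIRT1, 19 IP and 0 input reads: gttggaagatggcGGACgaggcggccctcg
EP300, ratio 5.36: attttgccagcccGGACcagaattcaatgc
ING5, ratio 6.89: aggatttggtctcGGACcagacccccctcc
GGAC was searched on the transcribed strand and occurred in 99 of the 152 member peaks (65.1%, exact 95% interval 57.0 to 72.7) and in 63.4% of all peaks placed on transcripts. It was present in 20 of 29 IP-rich member peaks (69.0%) and in 34 of 60 input-rich ones (56.7%), where the whole table gave 75.3% and 54.1%. Per 100 nt, the member peaks held 0.484 GGAC and 2.05 DRACH sites, a DRACH match containing any GGAC that is followed by A, C or U, and all placed peaks held 0.545 and 1.85. A motif match is a description of the letters, and methylated bases were not resolved.

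More IP than input reads were counted in 54 of the 152 member peaks (35.5%, exact 95% interval 27.9 to 43.7), and in 40.5% of all listed peaks. IP-rich were 29 member peaks (19.1%, interval 13.2 to 26.2), beside 17.2% in the whole table. Input-rich were 60 (39.5%, interval 31.6 to 47.7), beside 30.3%. The first 2 shares were near the background, and the third was above it, with 17 of the 60 input-rich peaks in CREBBP and NCOR1. Without these genes it was 43 of 127 (33.9%, interval 25.7 to 42.8), which includes the background. With 1 peak kept per overlapping group, that with most IP and input reads together, it was 33 of 99 (33.3%, interval 24.2 to 43.5), beside 27.1% of all peaks kept the same way.

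Counted by gene, 29 of the 32 had a peak with more IP than input reads (90.6%, interval 75 to 98), beside 73.8% of all genes with a peak. An IP-rich peak was listed for 19 of the 32 (59.4%, interval 40.6 to 76.3), beside 43.5%. With 1 peak kept per overlapping group, these counts were 25 and 16 of the 32, and the shares over all genes were not computed that way. A gene with more peaks has more chances of a high one, and the number of peaks per gene was not matched. The median over member peaks was 0.486 IP reads per input read, and 0.64 over all peaks, and the median of the highest ratio per gene was 4.61, beside 3. IP-rich and input-rich peaks stood together in 8 genes, among them EP300, KAT5, KAT7, BRD2, BRPF3 and HDAC9. The same count over all genes was not made, so whether 8 is many for genes with several peaks is not known. Because peaks of a gene overlap and share reads, these intervals over peaks are too narrow, and the 152 peaks formed 99 groups with no overlap.

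**Figure D1:**
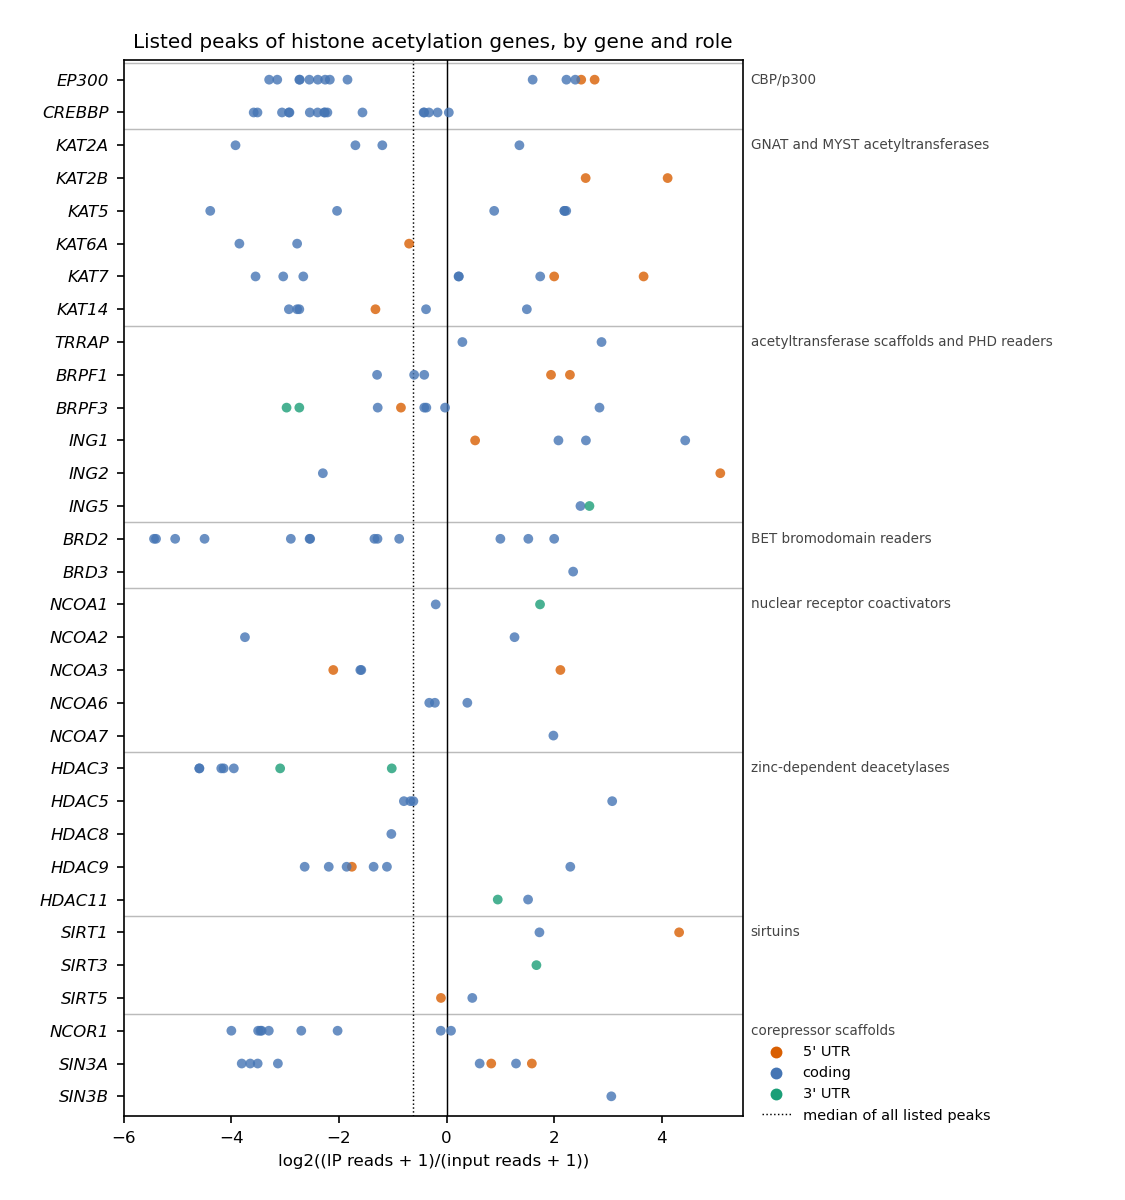
Each point is a member peak, placed by its log2 ratio of IP to input reads with 1 added to each count, in rows by gene and grouped by role; colours give the region named by the authors, and the dotted line is the median of all listed peaks. Many genes have points on both sides of equal reads (log2 ratio of 0), CREBBP and NCOR1 barely pass it, and HDAC3, HDAC8 and KAT6A stay under it.

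The paired acetyltransferases EP300 (p300) and CREBBP (CBP), coactivators that acetylate histone H3 and H4 for a wide range of transcription factors, both carried many peaks and differed in their highest ratios. EP300 had 14 peaks, of which 5 had more IP than input reads. The upstream pair lay in exon 1 before the start codon, with 100 IP and 14 input reads (ratio 7.14, exact 95% interval 4.06 to 13.5) and with 33 and 5 (6.60, 2.56 to 21.7). A peak within exon 2 had 196 and 64 reads, a ratio of 3.06 (2.30 to 4.13). The last exon, exon 31, held the remaining pair, with 191 IP and 40 input reads (4.78, 3.38 to 6.89) and 209 and 39 (5.36, 3.79 to 7.75). The midpoint of that final peak lay 49 nt before the stop codon. The EP300 peaks between them in exons 1 to 30 were low: apart from the exon 2 peak, 9 peaks had 5 to 11 IP reads and 39 to 61 input reads, and ratios from 0.0862 to 0.262.

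CREBBP had 16 peaks in exons 1 to 23 of 31, and none was IP-rich. Its highest had 104 IP and 101 input reads, a ratio of 1.03 with an interval of 0.775 to 1.37. Peaks within exon 2 had 50 IP and 63 input reads (ratio 0.794) and 64 and 72 (0.889), and 10 of the 16 were input-rich. In EP300, 8 of the 14 peaks were input-rich, and the median ratios of the genes were close, 0.198 for EP300 and 0.185 for CREBBP. CREBBP summed to 437 IP reads over 1119 input reads, and EP300 to 793 over 581. CREBBP had no peak that the authors placed in a UTR and none in its last exon. The sums therefore cover unlike parts of the transcripts.

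Among the GNAT and MYST acetyltransferases, 6 of 8 genes had peaks, and KAT6B and KAT8 had none. KAT2B (PCAF, the SAGA and ATAC acetyltransferase) had 68 IP and 3 input reads at the 5′ end of its first exon, a ratio of 22.7 with a wide interval (7.43 to 113). A neighbouring KAT2B peak had 5 IP and 0 input reads, which is 1.67-fold against the floor and so below the threshold of 4. With 0 input reads this peak was still among those counted as IP-rich. Its exact interval started at 0.916 and included equal reads. Its paralog KAT2A (GCN5) had 4 peaks, with 68 IP and 26 input reads at the highest (2.62, 1.64 to 4.28) and 5 and 90 at the lowest (0.0556). The KAT2A peaks lay in exons 1 to 5 of 18 and formed a single overlapping group.

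KAT7 (HBO1, which acetylates histone H3 and H4 with BRPF or JADE subunits) had 8 peaks, with the higher ratios toward the 5′ end. Across the junction of exons 1 and 2 it had 404 IP and 31 input reads (13, 9.04 to 19.4), and across exons 2 and 3 it had 283 and 84 (3.37, 2.63 to 4.35). In exons 4 to 6 the ratio was 0.115 from 14 and 122 reads. Next, the pair in exons 6 to 8 had 76 IP and 65 input reads (1.17) and 122 and 104 (1.17), and the peak over exons 14 and 15, which reached the 3′ UTR, had 6 and 81 (0.0741).

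KAT5 (Tip60, the acetyltransferase of the NuA4 complex) had high ratios in its first exons and low ones further on. Its first 3 peaks, in exons 2 to 5, had 264 IP and 57 input reads, 326 and 69, and 455 and 99, ratios of 4.63, 4.72 and 4.60. Exons 6 to 8 had 300 and 162 reads (1.85), exons 7 to 9 had 8 and 188 (0.0426, 0.0181 to 0.0856), and exons 9 to 11 had 89 and 368 (0.242). The highest and lowest KAT5 peaks, whose sequences are printed above, differed 111-fold. KAT14, the ATAC complex subunit, had 6 peaks, with 89 IP and 31 input reads in exon 5 (2.87, 1.89 to 4.47) and 0.765 or lower elsewhere. KAT6A (MOZ, a MYST acetyltransferase of H3) had 3 peaks, with 28 IP and 46 input reads (0.609), 6 and 47 (0.128), and 6 and 100 (0.0600), all below 1.

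**Figure D2:**
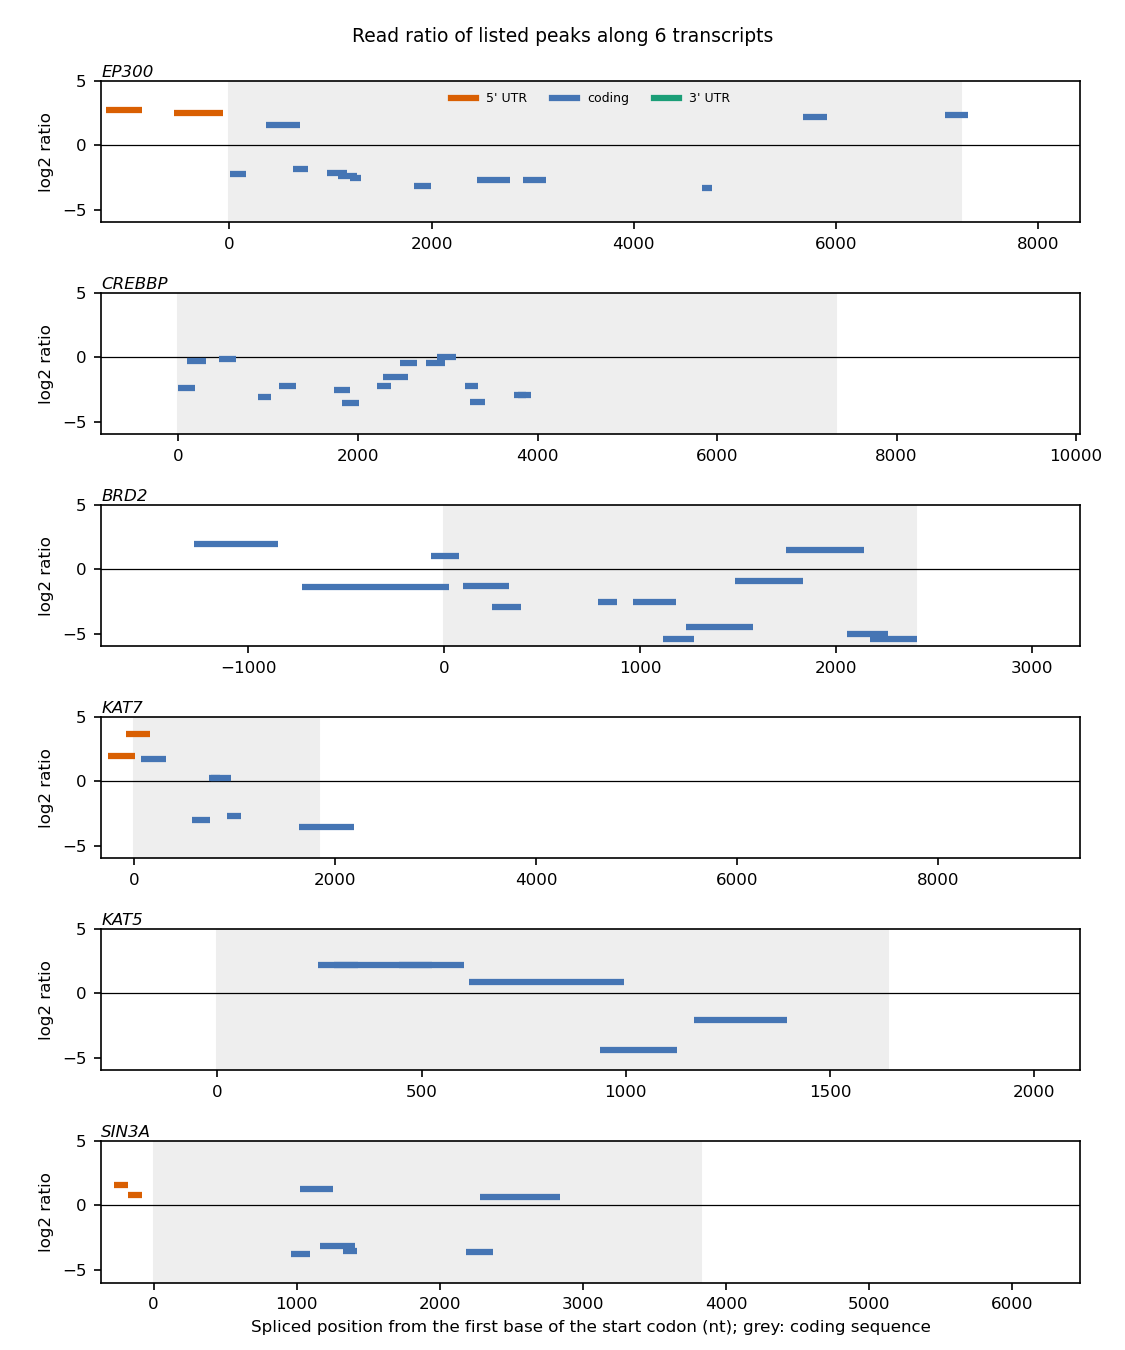
Peaks of 6 member genes along the spliced transcript, in nucleotides from the start codon with the coding sequence in grey; bars span each peak, heights are log2 ratios of IP to input reads with 1 added to each count, and colours give the region named by the authors. EP300 is high at both ends and mostly low between them, CREBBP stays at or under about equal reads, and BRD2 alternates.

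Scaffold subunits and PHD-finger readers of acetyltransferase and deacetylase complexes had the highest share of IP-rich peaks among the roles. It was 9 of 23 (39.1%, interval 19.7 to 61.5), beside 17.2% of all peaks. All 6 genes with peaks held one, beside 43.5% of all genes with a peak, and BRD1, ING3 and ING4 had no peak. These 6 genes lie on the plus strand, where 17 of the 20 members had an IP-rich peak. Role and strand were not separated. ING2, which binds methylated H3 lysine 4 and recruits the SIN3 deacetylase complex, had 271 IP and 7 input reads in its first exon. That ratio of 38.7 (18.5 to 97.2) was the highest among member peaks with input reads, and the peak held neither GGAC nor another DRACH site. Its other peak, over both exons, had 12 and 63 reads (0.190), so these differed 203-fold. ING1, another SIN3 complex subunit, had more IP than input reads in all 4 peaks. The counts were 12 and 8 around the start codon (1.5, 0.564 to 4.23), 130 and 30 across the intron (4.33, 2.90 to 6.68), 648 and 29 in exon 2 (22.3, 15.4 to 33.6), and 300 and 49 just before the stop codon (6.12, 4.51 to 8.46). ING5, of the BRPF and HBO1 complexes, had 431 IP and 76 input reads over exons 5 and 6 (5.67, 4.43 to 7.34) and 62 and 9 in the 3′ UTR (6.89, 3.40 to 15.8).

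TRRAP, the large scaffold that brings activators to SAGA and NuA4, had 2 peaks. In exon 72, its last, 610 IP and 82 input reads gave 7.44 (5.90 to 9.49), with the midpoint 51 nt past the stop codon. Exons 51 and 52 had 75 and 61 reads (1.23, 0.865 to 1.75). BRPF3, a scaffold of HBO1, had 8 peaks, of which the exon 2 and 3 peak had 336 IP and 46 input reads (7.30, 5.36 to 10.2). The other BRPF3 ratios lay from 0.111 to 0.980, the lowest in its 3′ UTR. BRPF1, the scaffold of the MOZ complex, had 95 and 24 reads (3.96, 2.51 to 6.48) and 97 and 19 (5.11, 3.10 to 8.84) before the start codon, and from 0.400 to 0.744 in coding sequence.

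BRD2 and BRD3 are bromodomain readers that bind acetylated H3 and H4 at active genes. BRD2 carried the most reads of any member, 2602 IP and 4204 input, over 13 peaks in 5 overlapping groups. The ratios alternated along the transcript: 215 IP and 53 input reads gave 4.06 (2.99 to 5.59) in exon 2, 487 and 243 gave 2 (1.71 to 2.35) at the start codon, and 1243 and 433 gave 2.87 (2.57 to 3.21) over exons 10 and 11. Between and after them lay 8 IP and 379 input reads over exons 7 and 8 (0.0211), 14 and 338 over exons 8 and 9 (0.0414), 10 and 362 over exons 11 and 12 (0.0276), and 11 and 519 over the last exons (0.0212). The peak next to the high one, over exons 9 and 10, had 333 and 614 reads (0.542). On the transcript used here the first BRD2 peaks lay before the start codon, where the authors' column called them coding. BRD3 had a single peak in exon 2, at 142 IP and 27 input reads (5.26, 3.47 to 8.26).

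The genes named nuclear receptor coactivators had peaks in 5 of 7 cases, and NCOA4 and NCOA5 had none. NCOA7 had a single peak, in exon 9, with 98 IP and 24 input reads (4.08, 2.59 to 6.67). NCOA6 had 3 peaks near parity, with 35 and 44 reads (0.795), 42 and 49 (0.857), and 97 and 74 (1.31, 0.959 to 1.80). The p160 family, NCOA1, NCOA2 and NCOA3, bridges ligand-bound receptors to CBP and p300. Its members had their highest ratios on few reads: 9 IP and 2 input reads for NCOA1 in its 3′ UTR (4.50, 0.931 to 42.8), 11 and 4 for NCOA2 in exon 11 (2.75, 0.815 to 11.8), and 12 and 2 for NCOA3 in its 5′ UTR (6, 1.34 to 55.2). The intervals of NCOA1 and NCOA2 included equal reads. The better covered peaks of this family were lower: NCOA1 had 19 IP and 22 input reads (0.864), NCOA2 had 6 and 93 (0.0645), and NCOA3 had 22 and 98 (0.224), 13 and 41 (0.317), and 25 and 78 (0.321).

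The zinc-dependent deacetylases had peaks in 5 of 11 genes, and HDAC1, HDAC2, HDAC4, HDAC6, HDAC7 and HDAC10 had none. HDAC3, the catalytic subunit of the NCOR complexes, had 7 peaks and no ratio above 0.491. Its first peaks had 5 IP and 144 input reads each (0.0347, 0.0111 to 0.0829) and overlapped, and exons 7 to 10 had 8 and 158, 8 and 163, and 7 and 123. Over the last exons, HDAC3 had 114 and 232 reads (0.491, 0.389 to 0.617) and 29 and 255 (0.114). HDAC8 had 26 and 54 reads in a single peak (0.481, 0.289 to 0.782). Of the class I enzymes with peaks, neither had more IP than input reads in any.

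HDAC5, a signal-regulated class IIa deacetylase, had 151 IP and 17 input reads over exons 5 and 6 (8.88, 5.37 to 15.6), and its other 3 peaks were at 14 and 25, 14 and 22, and 26 and 42 (0.560 to 0.636). HDAC9, of the same class, had 383 IP and 77 input reads over exons 11 and 12 (4.97, 3.89 to 6.44) and 6 other peaks from 0.145 to 0.456. In both, then, a single peak was IP-rich. HDAC11, the class IV enzyme, had 19 and 6 reads (3.17, 1.22 to 9.69) and 28 and 14 (2, with the interval's lower end just above 1).

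Of the NAD-dependent sirtuins, SIRT1, SIRT3 and SIRT5 had peaks and SIRT2, SIRT4, SIRT6 and SIRT7 had none. SIRT1, the main nuclear sirtuin, had 19 IP and 0 input reads in its first exon, 6.33-fold against the floor, with an exact interval from 4.67. Across exons 1 and 2 it had 42 and 12 (3.50, 1.81 to 7.30). SIRT3, a mitochondrial deacetylase, had 69 and 21 reads at its stop codon (3.29, 1.99 to 5.64). SIRT5, a mitochondrial desuccinylase, had 39 and 42 (0.929, 0.585 to 1.47) and 38 and 27 (1.41, 0.837 to 2.40), near parity.

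The corepressor scaffolds ran from 0.0526 to 8.44. SIN3B had a single peak, in exon 14, with 667 IP and 79 input reads (8.44, 6.68 to 10.8). Its paralog SIN3A had 8 peaks, the highest in the 5′ UTR on few reads, with 11 IP and 3 input (3.67, 0.969 to 20.5) and, next to it, 15 and 8 (1.88, 0.746 to 5.11). Further SIN3A peaks had 251 and 102 reads over exons 7 and 8 (2.46, 1.95 to 3.13), 169 and 110 in exon 15 (1.54, 1.20 to 1.97), and 5 and 83 at the lowest (0.0602). NCOR1, the HDAC3 corepressor, had 9 peaks from 5 IP and 95 input reads (0.0526) to 71 and 67 (1.06, 0.748 to 1.5), and 7 of 9 were input-rich. NCOR1 and its partner enzyme HDAC3 had no IP-rich peak. Nor had 4107 of the 7267 genes with a peak, or 10 of the 12 members on the minus strand, where both lie.

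**Figure D3:**
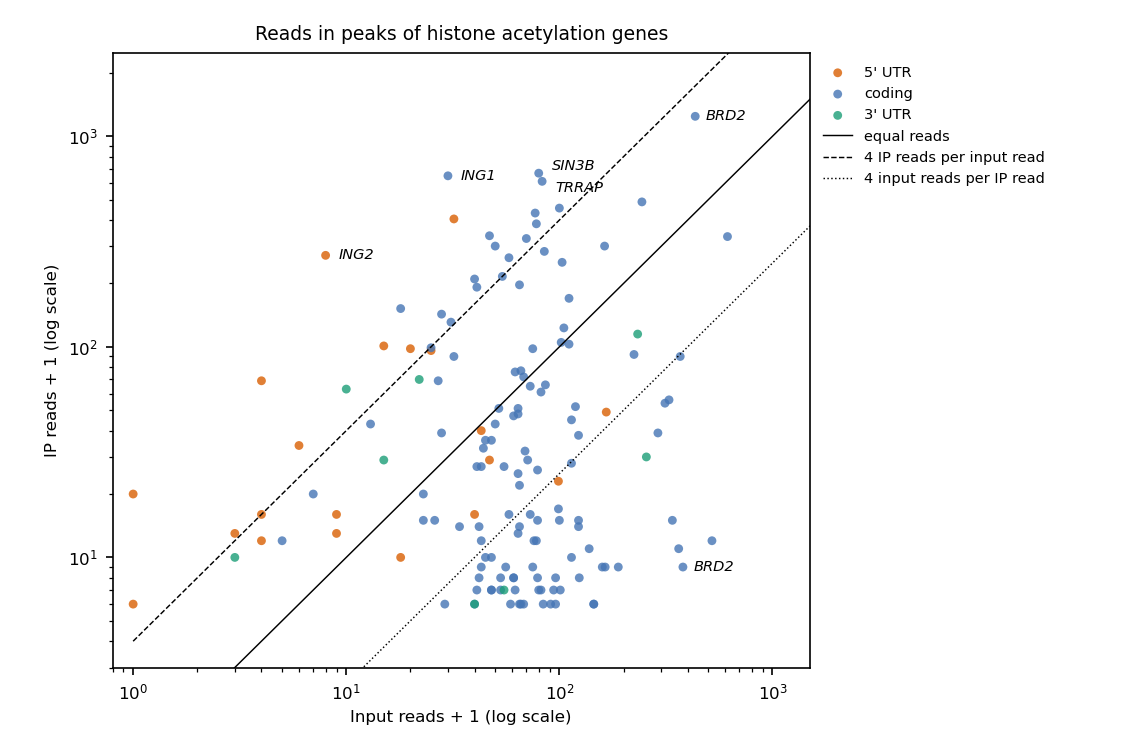
IP reads against input reads of the 152 member peaks, with 1 added to each and both axes on log scales; colours give the region named by the authors, and the lines mark equal reads and ratios of 4 either way. ING2, ING1, SIN3B and TRRAP lie above the upper line with at least 271 IP reads each, and a BRD2 peak with 8 IP and 379 input reads lies far to the input side.

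Ratios differed by position on the transcript. By the authors' column, 20 member peaks were in the 5′ UTR (13.2%, 17.9% of all peaks), 124 were coding (81.6%, 68.3%) and 8 lay in the 3′ UTR (5.26%, 13.8%). Median ratios were 4.48 for the 5′ UTR peaks, 0.355 for the coding peaks and 1.25 for the 3′ UTR peaks, beside 2.56, 0.493 and 0.489 for all peaks. The 3′ UTR value rested on 8 peaks, with an interval of 0.111 to 6.89 that leaves its side of equal reads unresolved, and its median log2 ratio with 1 added to each count was -0.03. IP-rich were 10 of the 20 5′ UTR peaks (50%, interval 27.2 to 72.8), including those of ING2, KAT2B, EP300 and KAT7, beside 40.5% of all 5′ UTR peaks. Of the 124 coding peaks 17 were (13.7%, interval 8.19 to 21), beside 12.0% of all coding peaks. GC content moved with this: the median was 68.1% in 5′ UTR and 52.0% in coding member peaks, 61.3% in IP-rich and 48.4% in input-rich ones, and its part in the ratios was not tested. In the whole table IP-rich and input-rich peaks had 65.3% and 49.5% GC.

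Coding peaks within a single exon had higher ratios than those that crossed an exon junction. Within 1 exon, 9 of 34 coding member peaks were IP-rich (26.5%) and 5 input-rich (14.7%), with a median ratio of 0.826. Across exons, 8 of 90 were IP-rich (8.89%) and 51 input-rich (56.7%, interval 45.8 to 67.1), with a median of 0.190. All coding peaks gave 25.9% and 16.6% within an exon and 7.96% and 40.1% across exons, so the same order held over the whole table. Within EP300, the coding peaks inside exons 2 and 31 were high, those inside exon 4 (9 IP and 44 input reads, 0.205) and exon 14 (5 and 39, 0.128) were input-rich, and the junction peaks were low. In KAT5, HDAC5, HDAC9 and BRPF3 the highest peak crossed a junction.

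**Figure D4:**
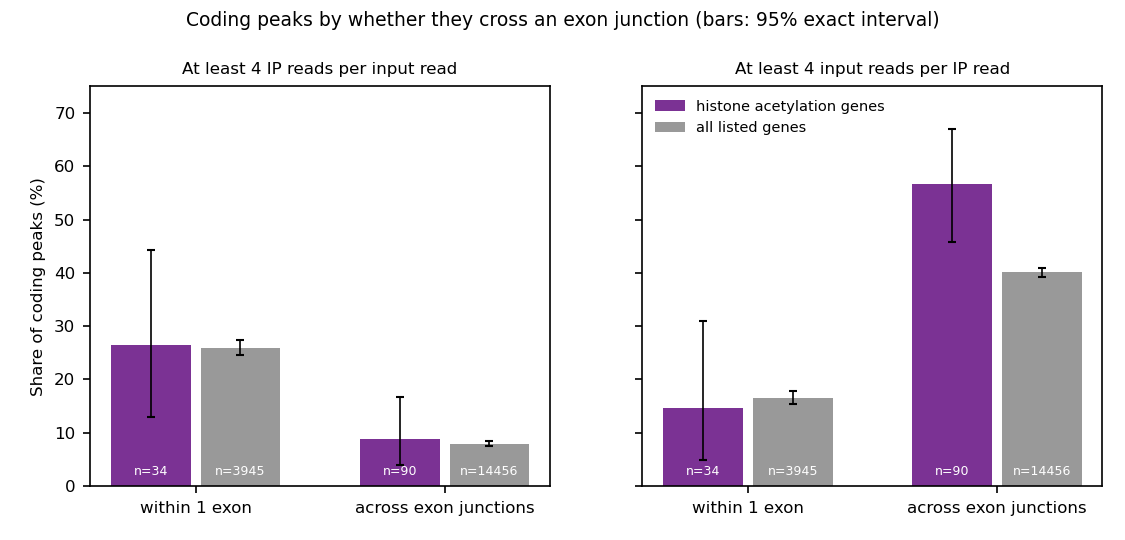
Share of coding peaks (percent, with exact 95% binomial intervals) that were IP-rich or input-rich, within 1 exon and across exons, for member peaks and for all listed peaks. Input-rich peaks are more frequent across exons in both sets, 56.7% in members and 40.1% in all.

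Around the stop codon, 11 member peaks had their midpoint within 200 nt (7.24%, 11.3% of all placed peaks), and 3 of these were IP-rich, in EP300, ING1 and TRRAP (27.3%, interval 6.02 to 61), beside 14.0% of all such peaks. SIRT3 followed at 3.29. The others were at or under 0.864, in BRPF3, HDAC3, NCOA1, NCOA3, KAT7 and BRD2, so a stop codon peak had a high ratio in some members and a low one in others. A last exon was reached by 20 member peaks (13.2%), beside 24.2% of all placed peaks. Of these 20, 8 were IP-rich (40.0%, interval 19.1 to 63.9), beside 16.0% of all such peaks. The 8 lay in ING1, EP300, TRRAP, ING5 and NCOA1, with 3 in ING1, whose last exon is the second of 2. Peaks of a gene are not independent, so this interval is too narrow. The NCOA1 peak rested on 9 IP and 2 input reads.

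Members on the plus and minus genome strands differed in the counts. IP-rich were 27 of 93 peaks in the 20 plus-strand genes (29%, interval 20.1 to 39.4) and 2 of 59 in the 12 minus-strand genes (3.39%, 0.413 to 11.7), those of HDAC5 and BRD3. The whole table gave 18.8% and 14.2%, and by gene 51.4% and 32%, against 17 of 20 and 2 of 12 for the members. Without CREBBP, NCOR1 and HDAC3, 2 of 27 minus-strand peaks were IP-rich (7.41%, 0.910 to 24.3). The table held 18058 plus-strand and 9620 minus-strand peaks in all. The gap between strands in IP-rich share was wider in the members than in the whole table. The part of strand in the low ratios of CREBBP, NCOR1, HDAC3 and KAT6A was not tested.

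A list of partners held subunits of known complexes of these enzymes, and further acetyltransferases and acetyl readers. It gave 53 of 82 genes with a peak (64.6%), beside 36.1% of all protein-coding genes. Of the 53, 35 had a peak with more IP than input reads (66%, interval 51.7 to 78.5), beside 73.8% of all genes with a peak, and 19 had an IP-rich peak (35.8%, interval 23.1 to 50.2), beside 43.5%. Acetyltransferase partners, with the further acetyltransferases and acetyl readers, had peaks in 29 of 49 genes, 11 with an IP-rich peak. Among them were TADA2B, the SAGA adaptor of KAT2A and KAT2B, with 48 IP and 2 input reads in the 5′ UTR, MRGBP, a NuA4 subunit, with 2847 and 441 (6.46, 5.84 to 7.15), and JADE2, an HBO1 scaffold, with 974 and 143 (6.81, 5.71 to 8.18). EP400, the NuA4 remodelling ATPase, had 15 peaks, 12 of them with more IP than input reads. Deacetylase complex partners had peaks in 24 of 33 genes, 8 with an IP-rich peak. DNTTIP1, of the MiDAC deacetylase complex, had 592 and 41 reads (14.4, 10.5 to 20.3), and RBBP4, the histone chaperone shared by the SIN3 and NuRD complexes, had 450 and 59 (7.63, 5.80 to 10.2). The reads given for TADA2B, MRGBP, JADE2, DNTTIP1 and RBBP4 are of the highest peak of each. Their lowest ratios were 0.15, 0.0526, 0.112, 0.122 and 0.0170, in that order, and RBBP4 had 1 IP-rich peak of 8. MTA2 and MORF4L1 had 7 peaks each and no ratio above 0.286 and 0.265.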

How the data were processed

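The values came from 1 deposited table of peaks. Its columns, per the file headers, were gene symbol, position, strand, transcript region, read counts of IP and of input, the authors' p-value and false discovery rate (FDR), and a score. The deposited counts were whole numbers, at least 5 in IP, without any replicate label, and were taken as the authors' pooled counts. Whether the 2 IP and 2 input libraries came from separate cultures is not stated in the labels. HISAT2, HOMER and GRCh38 (hg38) are named in the submitters' processing notes. Not given in the sources used here are the peak caller, its thresholds, the library totals, any pooling and how reads shared by paralogs were treated. The authors' p-value and FDR served only for an alternative filter at FDR 0.05, and 12 member peaks in the authors' deposited table had a higher FDR. The authors' score was infinite for 2 member peaks and served only as an alternative measure.

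Of 27855 entries, 177 repeats of gene and coordinates were removed. Listed peaks held 4917888 IP and 4790407 input reads, of which the members had 13108 and 13391. Peaks were placed on GENCODE 29 transcripts where start and end fell in exons and the spliced length was a multiple of 10 nt. That placed 26924 of the 27678 peaks and all 152 member peaks, and the authors' region matched the midpoint region for 136 of these. Read ratios have exact (Clopper-Pearson) 95% intervals, median ratios are of the ratios as deposited, log2 medians add a pseudocount of 1 to each count, and the floor was 3 counts. Intervals cover counting error only, since reads were not told apart from duplicates and replicates were not separate. The scripts were tested on simulated data and used Python 3.11.15, numpy 2.4.6, pandas 2.3.3, scipy 1.17.1 and matplotlib 3.10.9.

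Peaks were described singly for the 10 members with the highest ratio in a peak of at least 20 IP reads, the 5 with most peaks, the 5 whose highest ratio was lowest, and the member with most reads of each role left over. Others were given by their highest ratio and number of peaks, with further values added where they showed the range. Some genes that fit the symbol pattern are not reported here and were left out of the count of annotated genes. The members and lists were chosen with earlier results of these data known. The alternatives for the input-rich share and the descriptions by exon junction, stop codon, strand and without single genes were chosen after seeing the data. Alternatives were 1 peak per overlapping group, a minimum of 20 reads, other thresholds and pseudocounts, the authors' score, the midpoint region and older gene symbols.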

Additional observations from a re-analysis of the deposited data

How the results depend on the processing

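Of 34 alternatives to the 10 summary values, 26 left the value within its interval or count range and 8 moved it. With 1 peak kept per overlapping group, the median log2 ratio of member peaks was -0.33 in place of -1.02, and partner genes with an IP-rich peak numbered 12 in place of 19. The peak kept was that with most IP and input reads together, and no median over all peaks kept the same way is given here. The log2 of the authors' score, which comes from the authors' deposited table and is on another scale, had a median of 1.55. The lowest member score was 1.001, input-rich peaks included, so a median log2 above 0 was fixed by the listing. The score and the read ratio could order peaks differently. For example, the CREBBP peak over exons 9 and 10 scored 7.14 at a ratio of 0.0737, and the last EP300 peak scored 1.10 at 5.36. How the score relates to the read ratio was not tested. With the ratio set against the table median of 0.64, 45.4% of member peaks lay above it, in place of 35.5% with more IP than input reads. With 1 peak per group, 42.4% had more IP than input reads, beside 44.1% of all peaks kept the same way. The input-rich share of 39.5% was 33.3% with 1 peak per group, 41.4% at 20 or more reads and 33.9% without CREBBP and NCOR1, alternatives chosen after seeing the data. The IP-rich share of 19.1% became 28.3% at 2 IP reads per input read and 7.89% when the lower bound of the interval had to pass 4. Under that bound 11 of the 19 member genes counted as IP-rich and 7 partner genes. At these other thresholds the shares over all peaks and genes were not computed, so no difference from the table is read from them. The number of members with a peak stayed at 32 with older symbols and at an FDR of at most 0.05. No paired analysis was possible because the table carries 1 IP and 1 input count per peak with no replicate number, and for the same reason no replicate could be left out. Depth limits peaks with few reads: the highest peaks of NCOA1, NCOA2 and SIN3A and the second KAT2B peak have intervals that include equal reads.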
